A study of Homo sapiens with 13 samples.

Results

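The genes of 8 secreted inflammatory cytokines and of 1 antagonist, IL6, LIF, IL11, IL24, IL1A, IL1B, IL1RN, IL18 and TNF, were followed in MCF10A cells after stimulation with EGF or with serum. They were chosen by gene symbol in the platform annotation, as 9 of the 11963 genes represented on the arrays. MCF10A is a spontaneously immortalized, non-tumorigenic human mammary epithelial line. The cells had been grown in DME:F12 medium with antibiotics, insulin, cholera toxin, hydrocortisone, heat-inactivated horse serum and EGF, and all 13 samples had then been deprived of serum for 24 h. Of these, 6 were stimulated with EGF and 6 with the mixture the labels call serum (horse serum, insulin, cholera toxin and hydrocortisone), each for 20, 40, 60, 120, 240 or 480 min, and 1 was left unstimulated. That composition, without EGF, rests on the brackets in the treatment description, and the labels state no separate EGF dose for the stimulation. Each condition was 1 array, with no replicate, so the tests treat arrays of related conditions as samples. The spread behind a p-value mixes array noise with real change among the times of a phase, or with stimulus differences that vary over time. It does not measure the spread between replicate cultures. The EGF array of 20 min carried 20 min in its title and 40 min in its description, and the title was used.

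IL-6, LIF and IL-11 belong to the IL-6 family, whose receptors share the chain gp130 (IL6ST) and signal through JAK kinases to STAT3. IL-24 is an IL-10 family cytokine that binds receptors found on epithelial cells. IL-1α and IL-1β, encoded by IL1A and IL1B, bind the receptor IL1R1 with its partner IL1RAP and signal through MYD88, while IL1RN encodes the antagonist that occupies the same receptor without signalling. IL-18 is a related cytokine, stored as a precursor in many epithelia and released after cleavage by caspase-1, and TNF acts through receptors of its own. Growth factors and inflammatory signals are known to induce several of these genes rapidly and transiently, through factors such as AP-1 and NF-κB.

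The stretch of 250 bases upstream of the annotated transcription start is shown for the 4 genes whose time courses carry the results below: IL6, with the earliest response, IL1A and IL1B, the genes of the IL-1 agonists, and IL24, with the most sustained EGF response. Sequences come from RefSeq on GRCh38.p14 and are written 5′ to 3′ on the strand of the gene, with the last base next to the start site. For IL1A the more upstream of its annotated starts is used. Capitals mark matches, on either strand, to 5 motifs: kappaB as GGGANNTTC, AP-1 as TGANTCA, CRE as TGACGT, C/EBP as TTGCNNAA and STAT as TTCNNNGAA.
IL6 (chr7:22726950-22727199, plus strand): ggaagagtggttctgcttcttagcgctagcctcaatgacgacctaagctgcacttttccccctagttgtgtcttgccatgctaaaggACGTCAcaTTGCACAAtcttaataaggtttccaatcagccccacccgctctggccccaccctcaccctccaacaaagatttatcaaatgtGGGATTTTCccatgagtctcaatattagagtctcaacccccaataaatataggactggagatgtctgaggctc
IL1A (chr2:112784494-112784743, minus strand): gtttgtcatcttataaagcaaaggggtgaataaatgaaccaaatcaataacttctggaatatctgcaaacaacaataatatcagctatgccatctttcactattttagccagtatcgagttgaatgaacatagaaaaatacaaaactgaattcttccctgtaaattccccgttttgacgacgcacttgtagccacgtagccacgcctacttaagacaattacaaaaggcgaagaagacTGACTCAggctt
IL1B (chr2:112836780-112837029, minus strand): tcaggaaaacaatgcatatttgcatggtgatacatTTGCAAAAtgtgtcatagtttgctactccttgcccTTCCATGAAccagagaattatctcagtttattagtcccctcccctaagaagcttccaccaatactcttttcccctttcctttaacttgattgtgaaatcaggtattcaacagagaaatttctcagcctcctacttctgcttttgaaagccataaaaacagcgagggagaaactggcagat
IL24 (chr1:206897193-206897442, plus strand): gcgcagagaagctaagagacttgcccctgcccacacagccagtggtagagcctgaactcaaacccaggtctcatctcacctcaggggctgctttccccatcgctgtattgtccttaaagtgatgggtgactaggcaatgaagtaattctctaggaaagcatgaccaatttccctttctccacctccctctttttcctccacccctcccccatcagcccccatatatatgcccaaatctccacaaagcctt

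The IL6 window held 1 kappaB match, at 73 to 65 bases before the start, and a CRE and a C/EBP match lying close together between 163 and 148 bases before it. The IL1A window held 1 AP-1 match, ending 6 bases before the start. The window of the other annotated IL1A start, at chr2:112784401-112784650 and not printed, held that match and a second AP-1 match nearer to its own start. IL1B held a C/EBP and a STAT match, and none of the 5 letter patterns was in the IL24 window. Among 35116 promoter windows of the same length, 3.52% held the kappaB pattern, 6.57% AP-1, 7.1% CRE, 9.05% C/EBP and 6.57% STAT. Promoter sequences were at hand for 7 of the 9 genes; LIF and IL18 were not among them. In the windows of the other 3, an AP-1 match stood once in IL11 and once in the most upstream of 3 IL1RN windows, with no match of any pattern in TNF. A match is a description of the letters and not evidence of binding.

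The values below are the deposited MAS5 signals, intensities on a linear scale that the authors had scaled so that the trimmed mean was 150.04 to 150.05 on all 13 arrays. Signals under 20 made up 33.3% of those on the 20 min serum array, and 36.8% to 40.0% on the other 12. Differences are given on the log2 scale after adding 6 to each signal and quantile normalizing, which understates changes of dim genes. The 9 genes had 16 probe sets, and each gene is represented by its brightest. Of these, 7 passed the filter on dim probe sets and were tested among 7731 genes. IL11 and TNF, with mean signals of 14.8 and 18.5, were below a signal of 20 and did not pass, whereas IL1RN, the dimmest that passed, averaged 27.8. Of the epithelial markers, the basal keratins KRT5 and KRT14 had signals of at least 3823.2 and 4862.9 on every array. None of 3 leukocyte markers passed the filter. Their summed signal was 8.6 to 46.2 on the EGF arrays and 22.2 to 49.1 on the serum arrays, against 36.5 on the unstimulated array. Of 4 monocyte and macrophage markers on the array, CD14 and CSF1R passed, and LYZ was at 0.2 to 8.6. The summed signal of the 4 was 171.6 to 302.9 after EGF and 161 to 384.8 after serum, against 219.4 unstimulated. A change in RNA per cell and in the share of cells that make the RNA cannot be told apart in these samples.

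**Figure D1:**
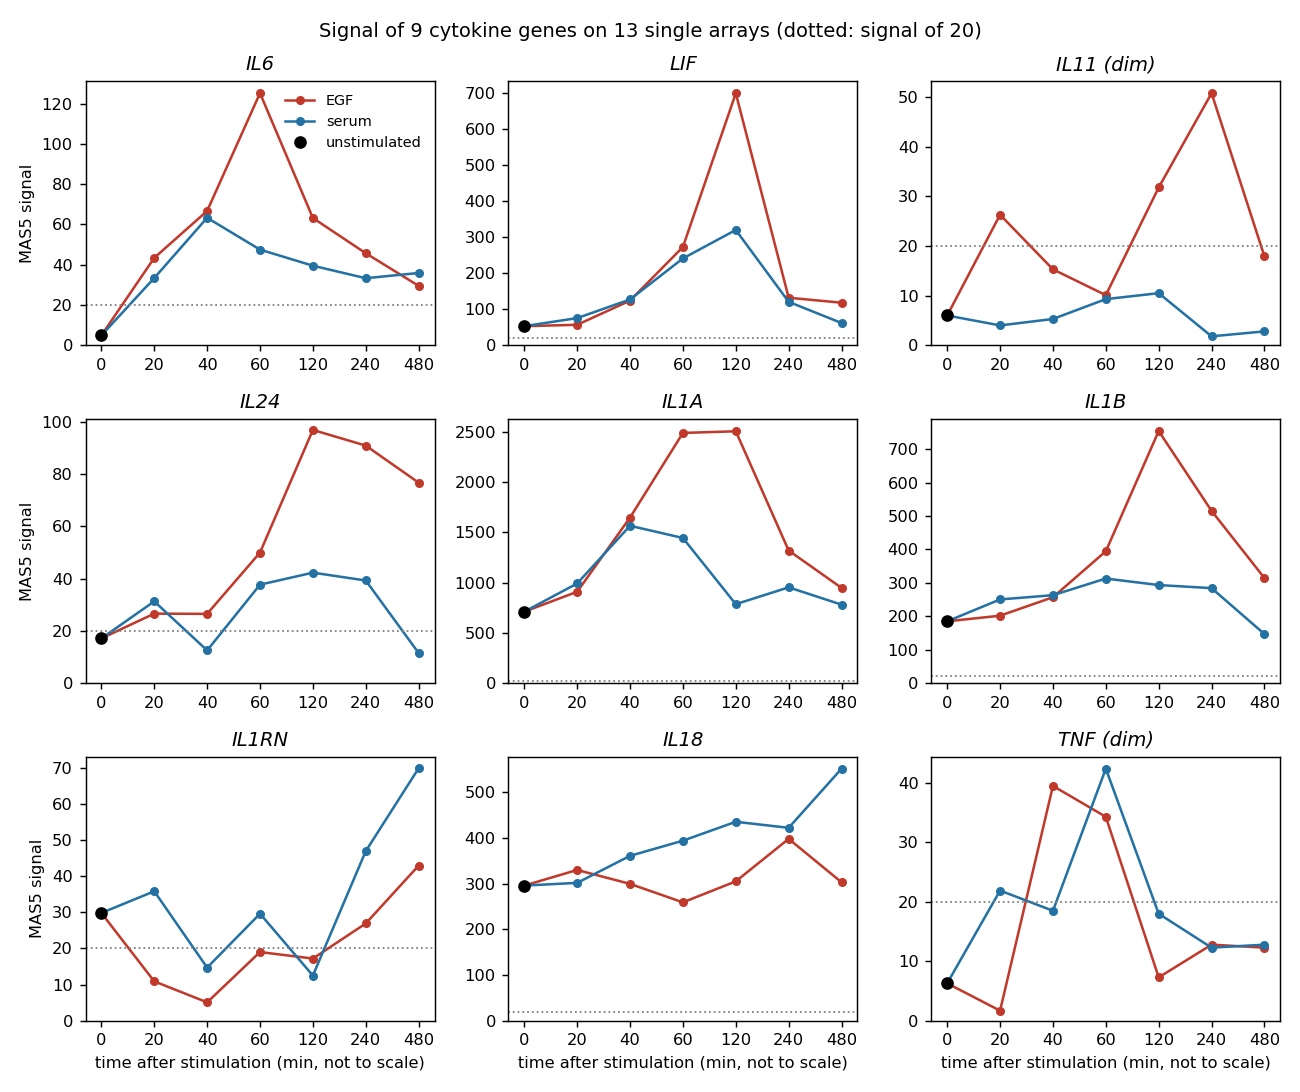
MAS5 signal (vertical axis, linear, a separate scale for each gene) against time after stimulation in min (horizontal axis, not to scale) for the 9 genes. Each point is 1 array: EGF in red, serum in blue, and the shared unstimulated array in black at 0; the dotted line is a signal of 20. IL6 peaked at 60 min in EGF and at 40 min in serum, LIF at 120 min in both, and IL24 and IL1B reached higher late signals in EGF than in serum.

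IL6, the cytokine that names the gp130 family, had the earliest large response. Its signal was 4.9 on the unstimulated array and 43.4, 66.7, 125.2, 63.2, 45.7 and 29.5 at 20, 40, 60, 120, 240 and 480 min of EGF. In serum it was 33.4, 63.3, 47.5, 39.5, 33.3 and 35.9 at the same times. All 12 stimulated arrays lay above the unstimulated one, the EGF course with a peak at 60 min and the serum course with a lower one at 40 min. The unstimulated signal lay below 20, so no fold against it is given. By 480 min the signal had returned to 23.6% of the peak in EGF and 56.7% in serum. The mean of the EGF and serum arrays was higher than the unstimulated array by 1.92, 2.74, 2.97, 2.40, 2.14 and 1.95 at the 6 times (log2, with 6 added to each signal). At 60 min the standard error was 0.38, the 95% interval 2.10 to 3.85 and the limma adjusted p = 0.05651, so no IL6 response passed the threshold of 0.05. By size, IL6 ranked between 1 and 7 of 7731 genes over the 6 times with this offset, between 1 and 4 with none and between 13 and 21 with an offset of 24. IL6 passed the filter on the mean of all 13 arrays through its stimulated signals, so these ranks are partly fixed by that filter. EGF was above serum at 5 of 6 times, by 1.24 (log2) at 60 min, and below it at 480 min by a difference of -0.24; over all 6 times the difference was 0.42 (SE 0.18, adjusted p = 0.2337). Every response of IL6 to stimulation rests on the single unstimulated signal of 4.9, where the offset weighs most: with no offset the 60 min difference was 4.05 and past the threshold (adjusted p = 0.02759), and with an offset of 24 it was 1.85.

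LIF, which signals through LIFR and gp130, followed more slowly and peaked sharply at 120 min with both stimuli. Its signal was 53 on the unstimulated array and 56.8, 123.9, 272.7, 699.2, 131.9 and 118.1 over the EGF course. Over the serum course it was 75.4, 127.1, 241, 319.9, 120.5 and 61.7. The EGF and serum courses ran close together up to 60 min and separated at 120 min, where EGF was higher. LIF was 13.2-fold above the unstimulated array at 120 min of EGF and 6.08-fold at 120 min of serum, and from there to 240 min it lost most of that signal in both. Its mean response at 120 min, 3.17 (log2, SE 0.39, 95% interval 2.26 to 4.07), had a limma adjusted p = 0.0673. It ranked 1 of the 7731 genes tested, also with an offset of 24 and without quantile normalization, and 5 with no offset. EGF minus serum was 1.12, 0.08 and 0.77 at 120, 240 and 480 min, which gave 0.66 over the late times (SE 0.20, adjusted p = 0.1627), against -0.06 over the early ones. The response was 2.29 at 60 min (SE 0.39, adjusted p = 0.1764) and 0.35 at 20 min.

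IL11, the third gp130 cytokine, was dim. Its signal was 6 on the unstimulated array, 26.3, 15.3, 10.1, 31.8, 50.8 and 17.9 over the EGF course and 4, 5.3, 9.3, 10.5, 1.8 and 2.8 over the serum course. The EGF array was above the serum array at all 6 times, and only 3 of the 13 signals, all after EGF, were above 20. In the fit without the filter, EGF minus serum was 1.41 (log2, SE 0.33, adjusted p = 0.1963). A second, dimmer IL11 probe set was higher in EGF at 2 of 6 times, with a mean EGF minus serum of -0.16, so the 2 probe sets differed in direction.

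IL24 had a sustained course in EGF. Its signal was 17.1 on the unstimulated array and 26.6, 26.5, 50, 97, 91 and 76.8 over the EGF course. In serum it was 31.3, 12.5, 37.7, 42.3, 39.3 and 11.5. The 3 late EGF signals were the highest of all 13, and the serum array of 480 min was the lowest. At 480 min of EGF the signal was still 79.2% of its peak, while in serum it was 27.2%. EGF minus serum was positive at all 6 times, from 0.04 at 20 min to 2.23 at 480 min (log2). Over the 3 late times, 120 to 480 min, it was 1.44 (SE 0.26, 95% interval 0.83 to 2.05, limma adjusted p = 0.06885), which ranked 14 of 7731. Leaving out the 480 min EGF or serum array took it to 1.04. Late minus early within EGF, 1.29 (SE 0.40, adjusted p = 0.205), ranked 9 of 7731.

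IL1A, the agonist that epithelial cells keep as an active precursor, had a broad peak in EGF and a shorter one in serum. Its signal was 710.4 on the unstimulated array and 909.4, 1648.2, 2491.6, 2508, 1319.8 and 947.7 over the EGF course. In serum it was 992, 1566.7, 1445, 785.5, 953.3 and 781.1. The courses ran close together at 20 and 40 min and came apart at 60 and 120 min, when the serum signals were lower than at 40 min. At 120 min IL1A was 3.46-fold above the unstimulated array in EGF and 1.09-fold in serum. The mean response at 60 min was 1.37 (SE 0.47, limma adjusted p = 0.5833). EGF minus serum over the late times was 0.82 (SE 0.30, adjusted p = 0.2182).

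The second, dimmer IL1A probe set did not show this response. It read 81.7 on the unstimulated array, 40.2, 49.6, 57.3, 44, 55.7 and 52 over the EGF course and 33.5, 26.1, 25, 36.9, 38 and 26.9 over the serum course. All 12 stimulated signals were below the unstimulated one. When the probe sets of a gene were averaged, the IL1A response was 0.24 at 60 min and 0.10 at 40 min, where the brighter probe set alone gave 1.12. The probe sets shared the order of the stimuli, with EGF higher at 5 of 6 times on the brighter and at 6 of 6 on the dimmer.

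IL1B, the agonist released after cleavage by caspase-1, carried the 1 call among the 9 genes. Its signal was 184.8 on the unstimulated array and 201.6, 256.9, 394.6, 754.5, 515.4 and 314.3 over the EGF course. In serum it was 250.3, 263, 312.9, 293.4, 284.1 and 146.6. Up to 60 min the courses overlapped, and at 120, 240 and 480 min each EGF signal was above the highest serum signal, 312.9, the 480 min one by little. The late EGF mean was 8.96 and the late serum mean 7.91 on the normalized log2 scale, a difference of 1.05 (SE 0.16, 95% interval 0.68 to 1.42) that passed the threshold (limma adjusted p = 0.04529). At the early times the difference was 0.01 (SE 0.16, adjusted p = 0.9764).

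The change of that difference between phases, late part minus early part, was 1.04 for IL1B (SE 0.22, adjusted p = 0.2416) and did not pass. The late call was close to the threshold: it was lost in 15 of 21 alternatives, among them leaving out any 1 of the 12 stimulated arrays, with the difference then at 0.91 to 1.18 and the adjusted p between 0.06009 and 0.1642. The second IL1B probe set gave late EGF minus serum values of 1.30, 1.08 and 0.97 at 120, 240 and 480 min, close to the 1.35, 0.81 and 1.0 of the brightest. Relative to the unstimulated array IL1B was 4.18-fold higher at 120 min of EGF and at most 1.75-fold higher in serum. The mean response of both stimuli at 120 min was 1.39 (SE 0.45, adjusted p = 0.424).

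**Figure D2:**
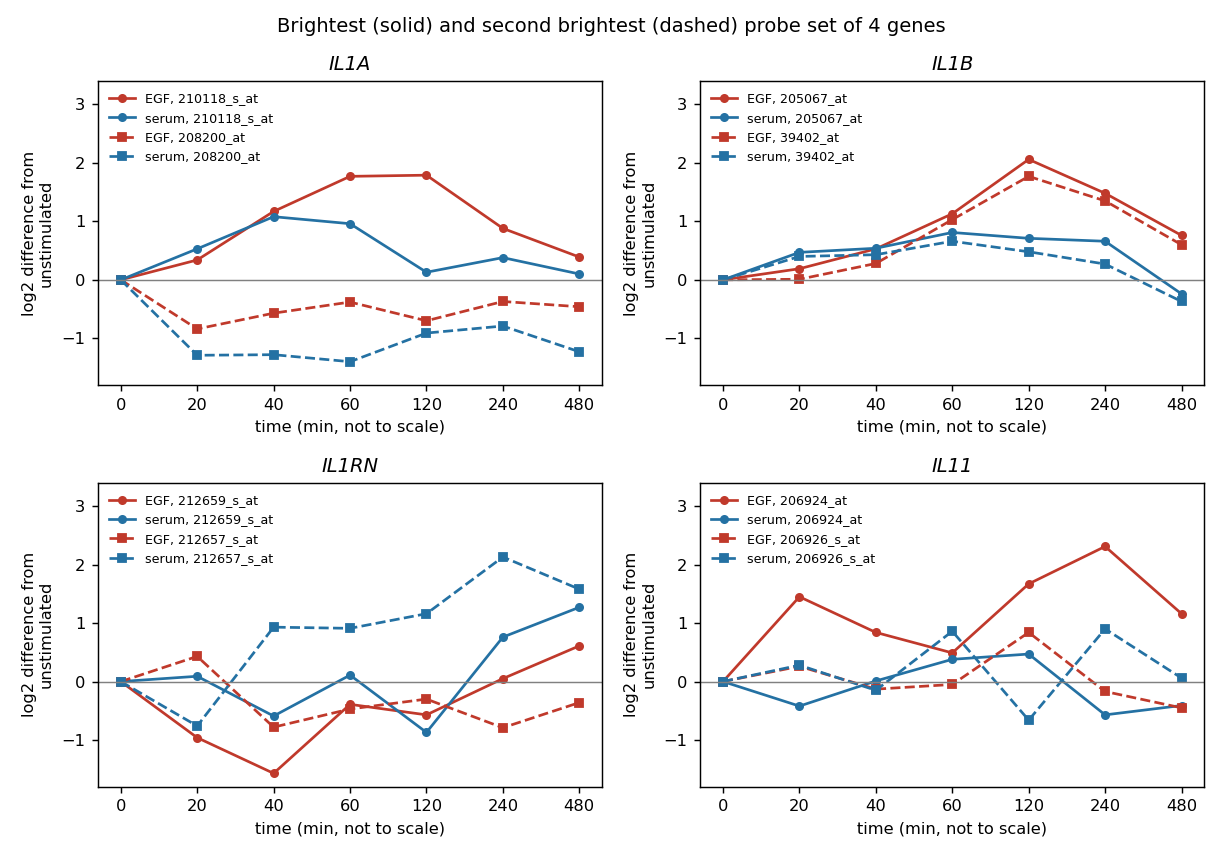
Log2 difference from the unstimulated array (vertical axis) against time in min (horizontal axis, not to scale), for the brightest probe set (solid line, circles) and the second brightest (dashed line, squares) of IL1A, IL1B, IL1RN and IL11; EGF is red and serum blue, each point 1 array. The IL1B probe sets ran together, with 2.06 and 1.77 at 120 min of EGF, while the IL1A probe sets lay on opposite sides of 0 on all 12 arrays.

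IL1RN, the antagonist of both agonists, was higher in serum at most times. Its signal was 29.8 on the unstimulated array, 10.9, 5.1, 19, 17.2, 26.9 and 42.9 over the EGF course and 35.8, 14.7, 29.6, 12.5, 46.9 and 69.8 over the serum course. The highest signal of each course was its last. EGF minus serum was -0.60 over all times (log2, SE 0.17, limma adjusted p = 0.1295), negative at 5 of 6 times, with 120 min as the exception. The next probe set, nearly as bright with a mean of 27.2, differed more: it read 24.3, 6.9, 9.7, 12.8, 6.3 and 9.6 over the EGF course and 9.7, 34.7, 35.3, 43.3, 87.3 and 56.3 over the serum course, with 17 unstimulated. There the EGF array was below the serum array at every time but 20 min, by a mean of -1.37 over the 6. The response of the first at 40 min, -1.08 (SE 0.36, adjusted p = 0.5998), was -0.32 with the probe sets averaged. That average also holds dimmer IL1RN probe sets, with mean signals of 16.3, 4.8 and 3.5, which did not pass the filter.

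IL18 varied less over the courses than IL1A and IL1B. Its signal was 295.5 on the unstimulated array, 329.6, 299.2, 258.8, 304.7, 397.6 and 302.7 over the EGF course and 301.4, 360.5, 393.6, 434.9, 421.7 and 550.9 over the serum course. The serum array was higher at 5 of 6 times, most at 480 min, where EGF minus serum was -0.87. Over all 6 times the difference was -0.37 (SE 0.13, 95% interval -0.69 to -0.06, limma adjusted p = 0.1862). The largest fold over the unstimulated array was 1.86, in serum at 480 min.

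TNF was dim, and its few signals above 20 came early. It read 6.3 on the unstimulated array, 1.7, 39.5, 34.3, 7.3, 12.8 and 12.3 over the EGF course and 21.9, 18.5, 42.4, 18, 12.3 and 12.8 over the serum course. The 4 signals above 20 were at 40 and 60 min of EGF and at 20 and 60 min of serum. From 120 min on, all 6 signals were at most 18. In the fit without the filter the response at 60 min was 1.90 (SE 0.61, adjusted p = 0.733), and EGF was higher than serum at 3 of 6 times.

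**Figure D3:**
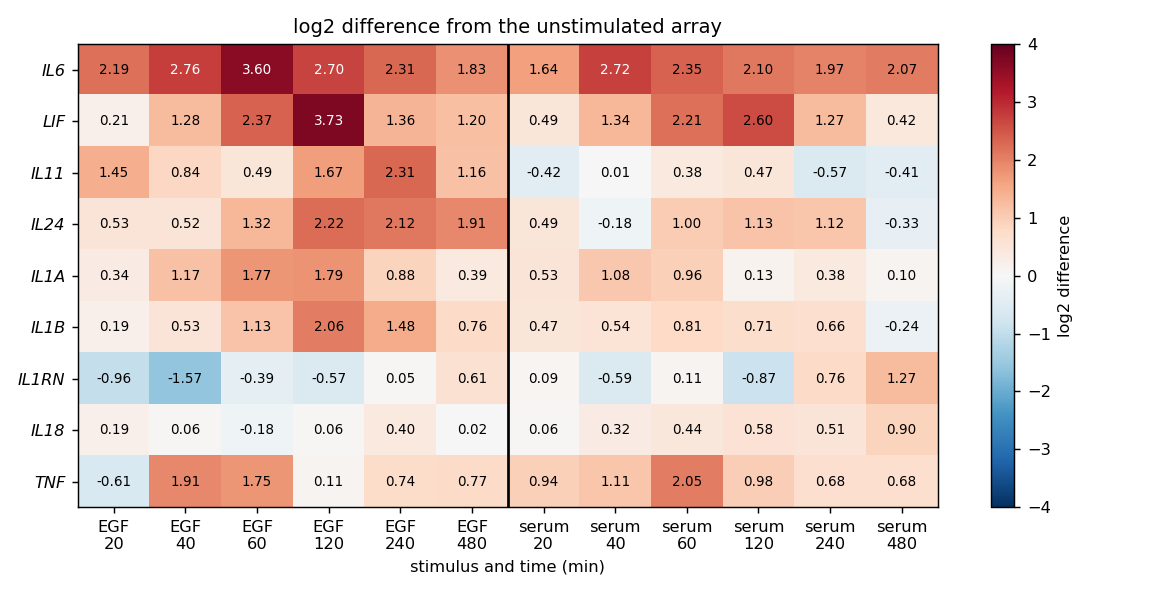
Log2 difference of each stimulated array from the unstimulated array for the 9 genes (rows), EGF left and serum right of the line, times in min; red is higher and blue lower than unstimulated, and each cell prints its value. IL6 was at least 1.64 on all 12 arrays, LIF was highest at 120 min with both stimuli, and IL18 stayed between -0.18 and 0.90.

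Taking the genes as a group against the unstimulated array, the test of each time called 0 of the 7 tested members at any of the 6 times, while 0.0259% of all genes passed at 20 min, 0.0776% at 40 min, 0.0776% at 60 min, 0.0259% at 120 min, 0% at 240 min and 0% at 480 min. Without adjustment, 1, 4, 3, 4, 4 and 2 members had limma p-values under the threshold at the 6 times, as did 5.91%, 7.04%, 7.44%, 9.26%, 9.75% and 11.8% of all genes. With limma's variance trend and robust variances in place of the constant prior, 6 member responses passed: IL6 at 40, 60, 120 and 240 min and LIF at 60 and 120 min. The median response of the 7 members was 0.35, 0.54, 1.16, 1.39, 1.07 and 0.79 at the 6 times, whereas the median of all genes lay between -0.01 and 0.03. IL6 and IL24 were among the 7 through their stimulated signals, since the filter used the mean of all 13 arrays. Their part in these unadjusted counts and medians, set beside all genes, is therefore partly fixed by that filter.

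By the fixed rule of at least 2-fold above the unstimulated array on both arrays of a time, IL6 alone counted at 20 min, where 0.517% of all tested genes did. IL6, LIF and IL1A counted at 40 min, with 0.698% of genes. The dimmer IL1A probe set did not reach it, at 0.674-fold of unstimulated in EGF and 0.413-fold in serum. At 60 min IL6 and LIF counted (0.828% of genes), and at 120 min IL6, LIF and IL24 (0.841%). The same 3 counted at 240 min (0.569%) and IL6 alone at 480 min (0.556%). No tested member was 2-fold lower on both arrays at any time. With an offset of 24, IL6 no longer reached 2-fold on both arrays at 20 and 480 min, nor IL24 at 120 and 240 min. IL24 also missed 2-fold at 240 min without quantile normalization and reached it at 60 min with no offset, and IL1A reached it at 60 min without quantile normalization. All these comparisons share the 1 unstimulated array. On it IL6 and IL24 read 4.9 and 17.1, below 20, so their 2-fold counts start from a dim value. The filter used the mean of all 13 arrays, and both genes passed it through their stimulated signals. Setting their counts beside the share of all tested genes is therefore partly fixed by that filter.

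**Figure D4:**
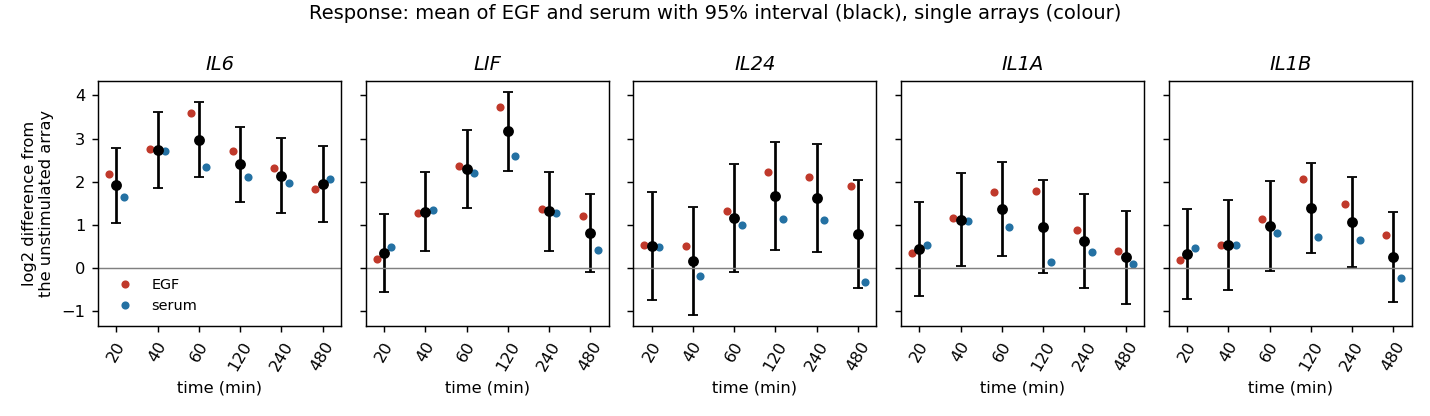
Response of 5 cytokines at each time in min: black points are the fitted mean of EGF and serum minus unstimulated (log2) with its 95% interval, and red (EGF) and blue (serum) points are the single arrays. The IL6 intervals lie above 0 at all 6 times and the LIF interval at 120 min is 2.26 to 4.07, and none passed the adjusted threshold.

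Late arrays, at 120, 240 and 480 min, were then set against early ones, at 20, 40 and 60 min. Over both stimuli 0 of 7 members passed, with 3.47% of all genes called. The largest member differences were 0.76 for IL1RN (SE 0.36, limma adjusted p = 0.2265) and 0.75 for IL24 (SE 0.29, adjusted p = 0.1432), and IL6 and IL1A lay at -0.38 and -0.36. Leaving out 1 array brought IL1RN (without the serum array of 120 min, 1.08, adjusted p = 0.04898) or IL24 (without the serum array of 480 min, 0.99, adjusted p = 0.04889) past the threshold. Within EGF 0 of 7 passed (0.259% of genes) and within serum 0 of 7 (1.33% of genes). At an unadjusted p under the threshold there were 2 members over both stimuli, 2 within EGF (IL24 and IL1B) and 1 within serum (IL18), beside 23.9%, 14.5% and 20.2% of all genes. The variance trend with robust variances also called 0 members in these 3 comparisons.

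For EGF minus serum at matched times, 0 of 7 members passed over all 6 times, with 0.129% of all genes called. Unadjusted, 6 of 7 had p-values under the threshold: IL6, IL24, IL1A and IL1B were higher in EGF, and IL1RN and IL18 higher in serum. The same unadjusted p was reached by 20.5% of all genes. The largest was IL24 at 0.90 (SE 0.26, limma adjusted p = 0.1298), which the variance trend with robust variances called (adjusted p = 0.04816). In the early part 0 of 7 passed, with 0% of genes called, and 0 with the variance trend; unadjusted there were 2 (IL6 and IL1RN), beside 14.4% of all genes. In the late part 1 of 7 passed, IL1B, with 0.75% of genes called. IL24 at 1.44, IL1A at 0.82, LIF at 0.66 and IL6 at 0.24 were also higher in EGF there without passing. IL18 and IL1RN lay at -0.50 and -0.36.

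The change of the difference between the parts called 0 of 7, with 0.0259% of genes called. Unadjusted there were 3, beside 11.2% of all genes: IL1B at 1.04, IL24 at 1.09 (SE 0.36, limma adjusted p = 0.3896) and LIF at 0.72 (SE 0.28, adjusted p = 0.4323). With the variance trend and robust variances IL1B passed (adjusted p = 0.01616). The summed signal of the luminal keratins KRT8, KRT18 and KRT19 was 3669.1 to 4369.9 on the EGF arrays and 3104 to 3710.4 on the serum arrays. Unstimulated, it was 3267.9. These ranges overlap, with the highest values on EGF arrays. KRT18, at 2615.7 to 3768, made up most of the sum, while KRT19, at 0.6 to 5.2, did not pass the filter. For the epithelial markers CDH1 and EPCAM the highest values were on serum arrays, again with overlap. Their sum was 1667.8 to 2279.6 on the EGF arrays and 2120.6 to 3223.1 on the serum arrays, against 2236.2 unstimulated. The sum of 3 basal markers was 10862.7 to 14373.4 after EGF and 11021.4 to 15248.4 after serum, against 12913.1. The part of these markers in the cytokine differences was not tested.

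**Figure D5:**
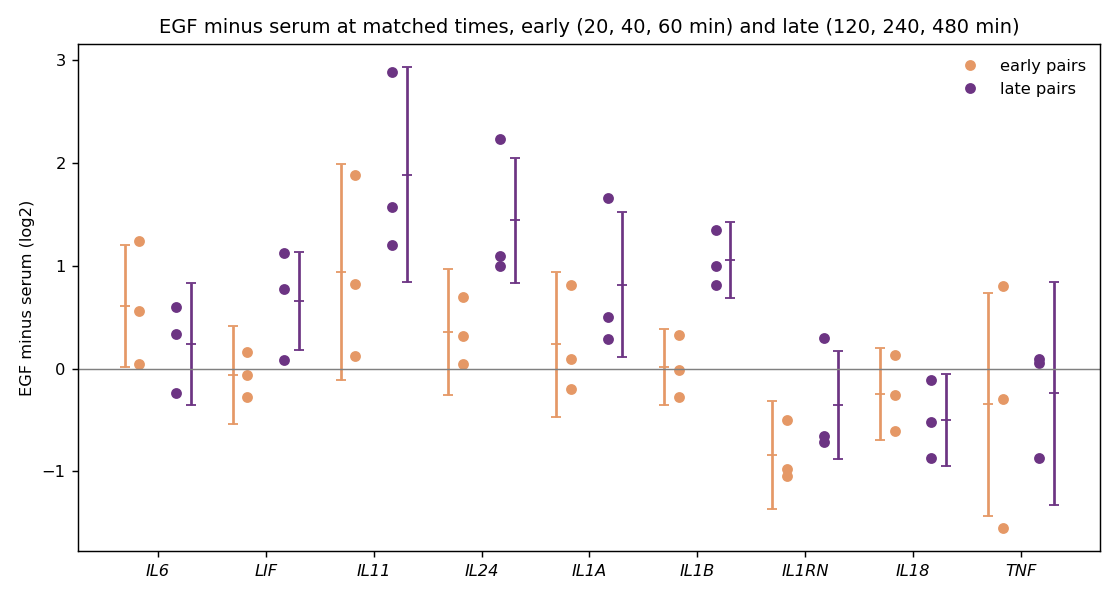
EGF minus serum on the log2 scale (vertical axis) for the 9 genes: each point is 1 matched time, early (20, 40 and 60 min) in orange and late (120, 240 and 480 min) in purple, and the bars are the fitted mean with its 95% interval. All 3 late points of IL1B (0.81 to 1.35) and of IL24 (1.0 to 2.23) are above 0, and IL1RN and IL18 lie mostly below it; IL11 and TNF are dim and come from the fit without the filter.

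Across the 13 arrays, IL24 and IL1B had the most similar courses of any 2 members (Pearson r = 0.87), followed by LIF and IL1B (0.82) and IL6 and IL1A (0.76). IL18 and IL1A had the lowest r, -0.47, although both lay mostly above the unstimulated array. These are descriptions, since the arrays of a course are not independent. Among 2735 tested genes with a range of at least 1 on the log2 scale, IL1B was most like HBEGF (r = 0.887), which encodes an EGF receptor ligand, then TXNRD1 (0.881) and IL24 (0.866). IL24 was most like PLAU (0.881), the urokinase plasminogen activator, PHLDA2 (0.879) and IL1B. LIF was most like MAFF (0.882), a small MAF transcription factor, TESK1 (0.869) and FHL2 (0.827).

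IL6 was most like IER2 (0.833), an immediate early gene, FCMR (0.833) and TRAPPC6A (0.831), and IL1A like IER2 (0.855), ENC1 (0.848) and HBEGF (0.825). IL1RN was most like SPAG1 (0.826), C1orf174 (0.809) and TEAD4 (0.781), and IL18 like SEC24D (0.905), CTR9 (0.891) and TVP23B (0.880).

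Of 59 listed genes of the same pathways, related ligands, receptors, processing enzymes, transducers and feedback regulators, 50 were represented and 32 tested. None of the 32 passed in the responses, where 2 to 6 had unadjusted p-values under the threshold at each time, beside 5.91% to 11.8% of all genes. From 60 to 480 min the largest difference at each time belonged to a ligand. IL36G, an IL-1 family cytokine of epithelia, read 8.8 on the unstimulated array, 1.6, 13.3, 24.9, 41, 19.5 and 15.4 over the EGF course and 18.8, 25.3, 78.7, 100.1, 29.8 and 24.9 over the serum course. Its peak at 120 min thus coincided with that of LIF, but EGF was below serum at all 6 times. Its response at 120 min was 2.30 (SE 0.33, limma adjusted p = 0.1294) and EGF minus serum over all times -0.97 (SE 0.16, adjusted p = 0.05897). The unstimulated and most EGF signals of IL36G were below 20, and its differences were not followed through other offsets. IL36G passed the filter through its higher stimulated signals, so its size beside other tested genes is partly fixed by that filter. TNFSF10, which encodes the death ligand TRAIL, was lower than unstimulated by -2.78 at 240 min (SE 0.72, adjusted p = 0.3365).

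Between phases, STAT3, the transducer below gp130, fell by 0.31 late over both stimuli (SE 0.07, limma adjusted p = 0.04498). It was 1 of 32 pathway genes called there, beside 3.47% of all genes. SOCS1, an inhibitor of JAK kinases, read 31.1 on the unstimulated array, 44.1, 49.4, 44.5, 12.2, 7.4 and 11 over the EGF course and 27.6, 13.1, 14.2, 46.7, 23.1 and 37 over the serum course. The EGF arrays were the higher ones early and the lower ones late. Within EGF it fell by 1.63 late (SE 0.20, adjusted p = 0.01321), and EGF minus serum in the late part was -1.34 (SE 0.15, adjusted p = 0.02203). In each of these comparisons SOCS1 was 1 of 32 called, beside 0.259% and 0.75% of all genes. The TNF receptor family member TNFRSF21 rose late within serum by 0.93 (SE 0.19, adjusted p = 0.0473), 1 of 32 beside 1.33% of all genes. With the probe sets of each gene averaged, none of these passed, and SOCS1 lay at -0.39 within EGF and -0.38 in the late part. No pathway gene passed in EGF minus serum over all times or early, with 9 and 7 of 32 unadjusted, beside 20.5% and 14.4% of all genes; the largest after IL36G were TOLLIP at -0.78 over all times and SOCS1 at 1.20 early. Of the 10 tested receptors, TNFRSF21 alone passed in any of the 13 comparisons. IL6ST, the gp130 chain, had signals of 1291.9 to 1454.6 on the EGF arrays and 1115.1 to 1640.3 on the serum arrays, against 1529.4 unstimulated.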

How the data were processed

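RNA from MCF10A cells was hybridized to 13 Affymetrix arrays of 22277 probe sets. The authors deposited linear intensity values, MAS5 signals per the submitters' processing notes; the MAS5 version is not given in the sources used here, and detection calls were not used. Gene symbols came from the platform annotation: 19064 probe sets had 1 symbol, 1043 several and 2108 none. Each of 11963 genes was represented by its brightest probe set. Values were log2(signal + 6), quantile normalized; genes at or above the 40th percentile of probe set means (4.68) were kept, which left 7731. limma 3.58.1 (lmFit and eBayes, R 4.3.3) was used with Benjamini-Hochberg adjustment over all genes kept within each comparison and a threshold of 0.05. Models were time plus stimulus (13 arrays, 5 residual degrees of freedom), stimulus by phase (12 arrays, 8), and time as a block with stimulus (5) or stimulus by phase (4). The fits were tested on simulated data.

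The members, the pathway and marker lists and the tests were chosen with earlier results of these data known. All 9 members were named. Differences of at least 1 on the log2 scale were followed through the alternatives for the 7 tested members. No such follow-up is given for IL11 and TNF, whose fits were made without the filter. Pathway genes were named where they passed, otherwise the 2 largest of a comparison could be. The array likeness used the 3 highest Pearson r. With arrays, their number limits the precision. Figures were drawn with Python 3.11.15, pandas 2.3.3 and matplotlib 3.10.9.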

Additional observations from a re-analysis of the deposited data

Results flagged for a closer look

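SOCS1 was marked because its difference between the stimuli differed between the phases. The late EGF-minus-serum difference minus the early one was -2.54 on the log2 scale (limma adjusted p = 0.03811), with EGF above serum at all 3 early times and below it at all 3 late times. The value was -0.51 with the probe sets averaged and it passed in 3 of 20 alternatives. With no offset it was -3.24 and with an offset of 24 it was -1.58. The late EGF signals of SOCS1 were below 20.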

How the results depend on the processing

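No member value followed through the alternatives changed sign. IL11 and TNF, which did not pass the filter, were not among those followed. The number of member responses called, 0, was 2 with no offset, 1 with an offset of 24, 1 with the 60th percentile filter, 1 with probe sets averaged, 6 with a variance trend and robust variances, and 0 to 1 with 1 array left out. In the late part of EGF minus serum the 1 call became 0 with no offset, 2 with an offset of 24, 0 with no filter, 3 with the variance trend, 0 without both 20 min arrays (added after seeing the data) and 0 to 1 with 1 array left out. The variance trend gave 1 member in EGF minus serum over all times and 1 in the change between parts, and leaving out 1 array gave 0 to 1 in late minus early. With an offset of 24 the count of 2-fold members became 0 at 20 min and 0 at 480 min, and 2 in place of 3 at 120 and 240 min. Over all genes, late minus early gave 56 to 651 calls against 268, within EGF 0 to 69 against 20, within serum 9 to 416 against 103, EGF minus serum 1 to 426 against 10, its early part 0 to 178 against 0, its late part 0 to 554 against 58, and the change between parts 0 to 70 against 2; the highest of each came with the variance trend. Responses gave 0 to 5 calls at 20 min, 1 to 20 at 40 min, 1 to 28 at 60 min, 1 to 26 at 120 min, 0 to 35 at 240 min and 0 to 46 at 480 min. STAT3 kept its call in 7 of 22 alternatives, TNFRSF21 in 7 of 21, and SOCS1 in 15 of 20 within EGF and 10 of 20 in the late part. The cause of these changes was not tested. In every EGF-minus-serum fit the EGF and serum arrays were paired by time; the labels give no replicate numbers that could serve as a further block.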
